A study of Mus musculus with 2 samples.

Results

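Cytosine methylation was described in 6 stretches of the mouse genome that carry large clusters of olfactory receptor genes, as read by whole-genome bisulfite sequencing of the dentate gyrus. The stretches are fixed windows on build mm9: chr2:85100000-89900000, chr7:109500000-110900000, chr7:113800000-115800000, chr9:18800000-19900000, chr9:37500000-39900000 and chr10:128600000-129500000. They are called the chr2, chr7a, chr7b, chr9a, chr9b and chr10 windows below. Together they cover 12.6 Mb. Their members are the listed cytosines of at most 100 reads in replicate 2, of which the windows hold 161632 of 27374435 (0.590%). The chr2 window holds 66067 of them, chr7a 16853, chr7b 23821, chr9a 12945, chr9b 31437 and chr10 10509. Each window was set against the 1 Mb on either side of it, 105747 sites in all. The chr10 window has only 0.492 Mb on its right side, because the listed positions of that chromosome end at 129991870.

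The DNA came from dentate gyri micro-dissected from adult male C57Black6 mice, 8-10 weeks of age, with no treatment. Both libraries of the series belong to that 1 group, and the windows are defined on replicate 2, so nothing in the comparisons below has a replicate check. The dentate gyrus is a part of the hippocampus with granule neurons and other cells, and every level is an average over that tissue. Bisulfite reads do not separate methylcytosine from hydroxymethylcytosine, and the tables cover 1 strand class (OT), so the opposite strand was not analysed. Cytosines are divided by the bases that follow them into CpG, CHG and CHH. H means any base but G, and CpH stands for both non-CpG classes.

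Olfactory receptors are G protein-coupled receptors that bind odorants, and they form the largest gene family of mammals. Their genes lie side by side in AT-rich clusters, are expressed in olfactory sensory neurons, typically a single receptor per cell, and are kept silent in other tissues, the brain included. In mature neurons the methyltransferase Dnmt3a also methylates cytosines outside CpG, with a preference for CA. Studies of brain methylomes have described megabase regions that are poor in this non-CpG methylation, olfactory receptor clusters among them.

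The start regions of these genes hold few CpG sites. In the RefSeq table (GRCm38.p6, a later build than that of the files, so no gene was placed in a window) chromosome 2 carries 286 protein-coding genes with an Olfr symbol, chromosome 7 carries 237, chromosome 9 carries 129 and chromosome 10 carries 68. The longest run of neighbouring Olfr genes with no other protein-coding gene between them counts 123 on chromosome 2, 42 on chromosome 7, 31 on chromosome 9 and 50 on chromosome 10. A promoter entry of 300 bases, from 250 before to 50 after the annotated start, was matched for 612 Olfr genes of these chromosomes. That start need not be where transcription begins, so promoter below means these 300 bases. The letters CG were searched for, which read the same on both strands. The 615 promoters of these genes hold a median of 1 CG, and 64.1% of them hold any. The 20319 promoters of other protein-coding genes hold a median of 14, and 96.7% of them hold any. The median GC content was 34% in the Olfr promoters and 57% in the others. Both sequences below are RefSeq promoter entries with the median CG count of their chromosome, 1 from the minus strand of chromosome 2 and 1 from the plus strand of chromosome 9, with CG in capitals. In the Olfr73 entry the 50 bases after the annotated start begin with atg, the letters of a start codon. Whether the Olfr and other entries cover like regions was not tested. They show how few CG such a start region holds. Their part in the levels below was not tested.
Olfr73: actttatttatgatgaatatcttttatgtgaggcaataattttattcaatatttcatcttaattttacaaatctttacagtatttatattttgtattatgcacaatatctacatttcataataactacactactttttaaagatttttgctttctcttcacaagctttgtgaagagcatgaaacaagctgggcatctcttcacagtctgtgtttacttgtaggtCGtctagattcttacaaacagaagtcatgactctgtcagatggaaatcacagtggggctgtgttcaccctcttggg
Olfr25: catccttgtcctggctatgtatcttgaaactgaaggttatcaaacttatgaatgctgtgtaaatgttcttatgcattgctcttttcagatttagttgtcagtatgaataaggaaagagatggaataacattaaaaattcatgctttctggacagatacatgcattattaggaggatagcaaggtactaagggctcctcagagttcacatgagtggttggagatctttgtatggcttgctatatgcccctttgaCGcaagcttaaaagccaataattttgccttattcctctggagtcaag
The letters CAC, or GTG for the other strand, occur at a median of 7 places in the Olfr promoters and 10 in the others, so sites of the kind favoured in neurons are present there.

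Depth and background set what can be read from these levels. CpG and CHG sites are listed from 20 reads and CHH sites from 30 reads. Median depth over the listed autosomal sites outside the windows was 23 reads for CpG and CHG and 32 for CHH. Mitochondrial CpH cytosines, taken here as unmethylated, were read as methylated in 0.368% of reads (exact 95% interval 0.365% to 0.370%), and that value is used as the level that failed conversion alone can give. Autosomal sites outside the windows were at 0.785% for CHG, 0.891% for CHH and 79.0% for CpG. Intervals of levels and shares are exact Clopper-Pearson intervals at 95%, while those of mean differences are normal intervals at 95% from the binomial standard errors. Both cover counting error only, since reads copied by PCR may stem from the same molecule.

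Non-CpG methylation was lower in 5 of the 6 windows than in the megabases beside them, in CHG and in CHH alike. The lowest window, chr9a, was at the mitochondrial level in CHG. The exception was the chr7b window, which holds a block of high CpH methylation and did not differ detectably from its 1 Mb flanks. All 6 windows were below the other autosomal sites in both contexts.

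In the chr2 window, the longest, the CHG level was 0.489% (0.475% to 0.503%), against 0.641% (0.612% to 0.670%) in its flanks. In the chr7a window it was 0.500% (0.474% to 0.528%), against 0.648% (0.621% to 0.677%) in the flanks. In the chr9b window it was 0.518% (0.498% to 0.539%), against 0.774% (0.743% to 0.807%) in the flanks, the widest gap of the 6. These 3 pairs of intervals do not overlap, and the differences passed a two-sided Fisher's exact test on reads (p adjusted over 18 tests: 4.86e-22 for chr2, 2.21e-13 for chr7a and 7.13e-43 for chr9b). The chr9a window was at 0.371% (0.345% to 0.398%), against 0.452% (0.429% to 0.476%) in its flanks (Fisher's exact test, adjusted p = 1.22e-05). The chr10 window was at 0.472% (0.439% to 0.506%), against 0.543% (0.512% to 0.575%) in its flanks (Fisher's exact test, adjusted p = 0.00308). Both pairs lie close together, because the flanks of these windows are themselves low. Taken by side, some flanks had intervals that overlapped those of the windows. These were the right flank of chr7a (0.524%, 0.491% to 0.559%) and the left flank of chr9a (0.406%, 0.378% to 0.436%). The right flank of chr10 (0.512%, 0.470% to 0.558%) was the other. The chr9a call was lost at sites of at least 30 reads (-0.0447 points; Fisher's exact test, adjusted p = 0.361), at 30 to 39 reads (-0.0540 points, adjusted p = 0.290) and with flanks of 0.5 Mb (-0.0392 points, adjusted p = 0.0629). The chr10 difference turned round at sites of at least 30 reads, to 0.170 points higher in the window (Fisher's exact test, adjusted p = 0.0172). It did not pass without the outer 100 kb of the window (-0.0462 points; Fisher's exact test, adjusted p = 0.0657). The chr7b window was at 0.721% (0.694% to 0.748%), against 0.699% (0.669% to 0.731%) in its flanks, a difference within counting error (Fisher's exact test, adjusted p = 0.304). It depended on the choice of limits: chr7b was higher than its flanks by 0.224 points with flanks of 0.5 Mb (adjusted p = 7.53e-21, Fisher's exact test), by 0.0772 points with flanks of 2 Mb (adjusted p = 4.46e-06) and by 0.0536 points without the outer 100 kb of the window (adjusted p = 0.0156). It was lower than the other autosomal sites, at -0.0644 points (Fisher's exact test, adjusted p = 5.24e-06). Taken singly, the chr7b flanks lay on either side of the window level. The left flank was at 0.451% (0.414% to 0.491%) and the right flank at 0.875% (0.831% to 0.921%).

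CHH sites, which are other cytosines and are listed from a higher depth, gave the same direction in each window. The CHH level was 0.534% in the chr2 window, against 0.740% in its flanks (Fisher's exact test, adjusted p = 3.62e-15). It was 0.636% in the chr7a window, against 0.866% in its flanks (Fisher's exact test, adjusted p = 5.91e-12). It was 0.546% in the chr9b window, against 0.865% in its flanks (Fisher's exact test, adjusted p = 8.20e-25). The chr9b window thus stood furthest below its flanks in both contexts. The chr10 window was at 0.512%, against 0.660% (Fisher's exact test, adjusted p = 1.59e-05), and the chr9a window at 0.441%, against 0.497% (Fisher's exact test, adjusted p = 0.0394). The chr9a call is marginal. It was lost with at most 50 reads (-0.0487 points; Fisher's exact test, adjusted p = 0.0741), with no upper limit (-0.0526 points, adjusted p = 0.0521) and with flanks of 0.5 Mb (0.00802 points, adjusted p = 0.790). With at least 30 reads in every context its CHH value is the same by construction, and the adjustment alone moved p to 0.0525. With those shorter flanks the chr2 difference in CHH did not pass either, at -0.0419 points (Fisher's exact test, adjusted p = 0.293). The chr7b window was at 0.713%, against 0.681% in its flanks (Fisher's exact test, adjusted p = 0.238). Like CHG it was higher with flanks of 0.5 Mb, by 0.290 points (Fisher's exact test, adjusted p = 2.52e-27), and without the outer 100 kb, by 0.0682 points (adjusted p = 0.0172). The left flank of chr7b was at 0.431% and its right flank at 1.16%. The right flank of chr7a was at 0.609% (0.559% to 0.663%), an interval that overlaps that of the chr7a window (0.596% to 0.678%).

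The chr7a flanks hold short stretches where many CpH reads were called methylated, and these enter their CHH level. Failed conversion within such stretches was not tested, and the mitochondrial level does not measure it there. On the left, 42 CpH sites within the 68 bp chr7:109106275-109106342 had 18.0% of 1671 reads methylated, and in replicate 1, 28 sites of the same stretch were at 13.5% of 620 reads. On the other side, 8 CpH sites at chr7:111488428-111488449 were at 23.4% in replicate 2 and 39.5% in replicate 1. Runs of this kind, at least 5 CpH sites of at least 10% within 30 bp of each other, numbered 0 in the 6 windows and 5 in the flanks. No count over all autosomes is given, so these numbers have no background. With the runs left out, chr7a CHH was 0.636% in the window, against 0.607% in the flanks. The same omission left chr7a CHG at 0.500%, against 0.630%. This omission was chosen after the values were seen and selects sites by level, so no test is given for it. At sites of 30 to 39 reads the chr7a CHH difference was -0.0652 points and did not pass (Fisher's exact test, adjusted p = 0.0601).

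Averaged with equal weight, the window minus flank difference was -0.115 points in CHG (-0.130 to -0.0989), with an SD of 0.0938 over the 6 windows, and -0.154 points in CHH (-0.179 to -0.130), with an SD of 0.127. The mean levels were 0.512% in the windows and 0.626% in the flanks for CHG, and 0.564% in the windows and 0.718% in the flanks for CHH. With flanks of 0.5 Mb the differences shrank to -0.0686 and -0.0865 points, and against all other autosomal sites they were -0.273 and -0.328 points. The tests compare reads of 1 library, and reads on 1 fragment are not independent, so these p-values are too small. Set against the spread over 100 kb bins, the CHG difference exceeded both the SD over window bins and that over flank bins in the chr9b window and in no other. The ranges of window and flank bins overlapped in all 6 windows.

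**Figure D1:**
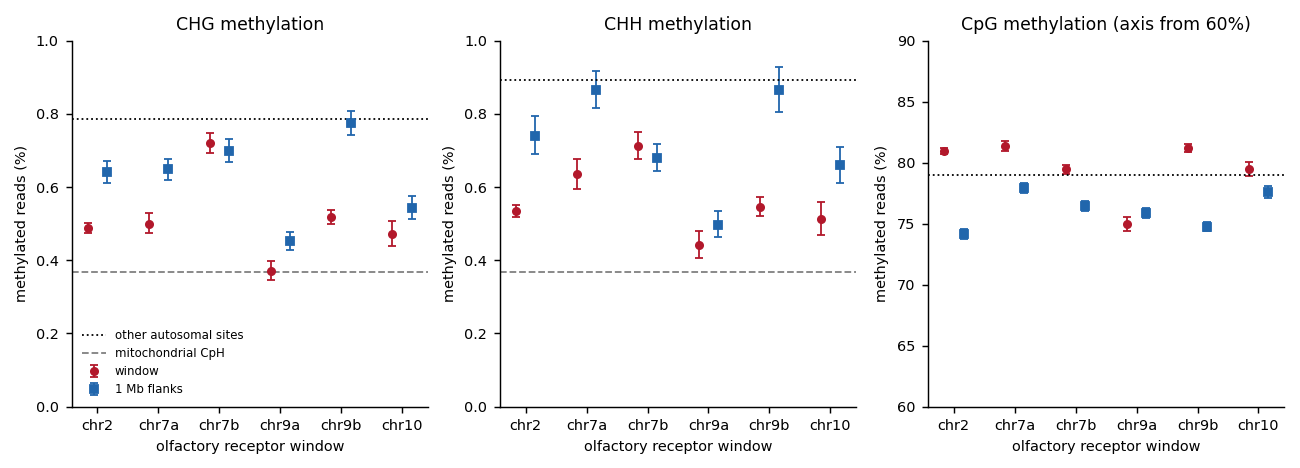
Read-weighted level of methylated reads (%) in each olfactory receptor window (circles) and in its 1 Mb flanks (squares) for CHG, CHH and CpG, replicate 2, with exact 95% intervals. The dotted line is the level of the other autosomal sites and the dashed line the mitochondrial CpH level. CHG and CHH lie below the flanks in 5 of 6 windows, the chr9a window reaches the dashed line in CHG, and CpG lies above the flanks in 5 of 6.

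Cut into 100 kb bins, the windows were low along most of their length. A bin was called low where its level was at least 1.5-fold under the median of all autosomal bins, and high where it was at least 1.5-fold over it. The median was 0.734% for CHG and 0.833% for CHH. In CHG, 70 of 126 window bins (55.6%) were low, against 39 of 112 flank bins (34.8%), where 9.79% of all 23800 autosomal bins are low. In CHH, 72 of 126 window bins (57.1%) were low, against 48 of 106 flank bins (45.3%), where 16.8% of all autosomal bins are low. High bins were few in the windows: 2 of 126 in CHG, against 6 of 112 in the flanks, where 10.2% of all bins are high, and 4 of 126 in CHH, against 15 of 106, where 17.2% are. The flanks too hold more low CHG bins than the autosomes at large. The median window bin stood at percentile 8.25 of the autosomal bins in CHG, and the median flank bin at percentile 21.2.

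The 6 windows were not equally low. All 11 bins of the chr9a window were low in CHG, from 0.313% to 0.438% with a median of 0.378%. In the chr10 window 6 of 9 were low, in chr7a 8 of 14, in chr7b 11 of 20 and in chr2 25 of 48. The chr9b window had the smallest share, 9 of 24, although its gap to the flanks was the widest. Its flanks were at autosomal levels, with a median bin of 0.753%, while those of chr9a had a median bin of 0.418%. The contrast with the flanks is thus a difference between levels that both varied from place to place.

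Single bins show the range within a window. In the chr2 window the lowest CHG bin was chr2:87600001-87700000 at 0.341% (0.267% to 0.428%) and the highest chr2:85200001-85300000 at 0.833% (0.713% to 0.968%). The highest lies in the outermost 200 kb at the left end. In the chr7a window the lowest was chr7:109900001-110000000 at 0.361% and the highest the leftmost bin, chr7:109500001-109600000, at 0.734%. In the chr9b window the lowest was the rightmost bin, chr9:39800001-39900000, at 0.347%, and the highest was chr9:39300001-39400000 at 0.876% (0.756% to 1.01%), the only bin of that window above the autosomal median. In the chr10 window the lowest was again at the right end, chr10:129400001-129500000, at 0.242% (0.162% to 0.347%). That interval lies under the mitochondrial level of 0.368%. The highest chr10 bin was chr10:128800001-128900000 at 0.665%. In the chr9a window the lowest and highest bins, chr9:18800001-18900000 at 0.313% and chr9:19300001-19400000 at 0.438%, have intervals that overlap (0.238% to 0.403% and 0.350% to 0.542%). No change along the chr9a window was therefore detectable by bins of this depth. Leaving aside chr7b, the SD of CHG over the bins of a window lay between 0.0435 points (chr9a) and 0.127 points (chr10), and that over the flank bins between 0.146 points (chr10) and 0.208 points (chr7a).

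**Figure D2:**
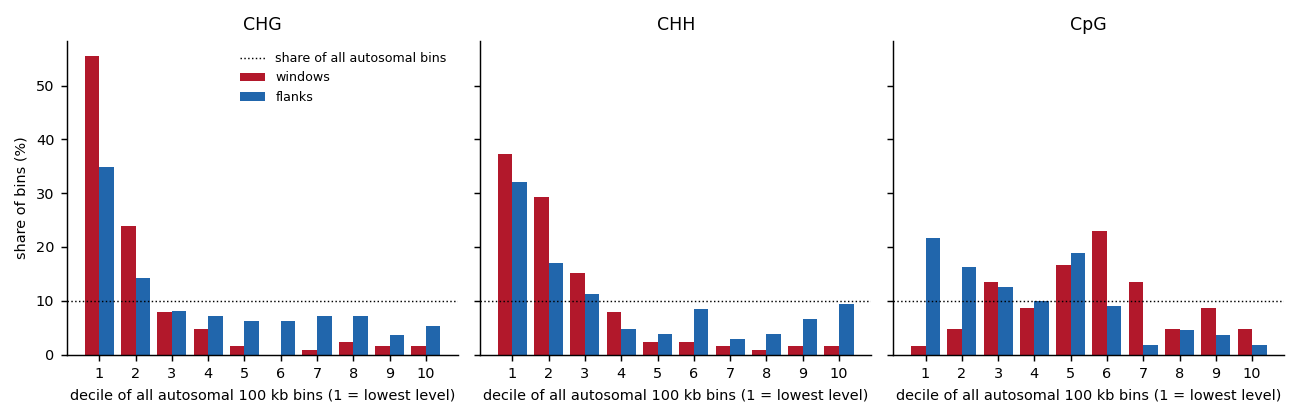
Share of 100 kb bins (%) of the windows (left bar of each pair) and of their flanks (right bar) in each decile of all autosomal bins ranked by level, replicate 2. Decile 1 is the lowest, and the dotted line is the share that all autosomal bins have by construction. In CHG 55.6% of window bins and 34.8% of flank bins fall in decile 1, in CHH 37.3% and 32.1%, and in CpG 1.59% and 21.6%.

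The chr7b window carried one block that was unlike the rest of it. Over chr7:114300001-114900000, 6 neighbouring bins were above the autosomal CHG median. Together they were at 1.3% CHG (1.24% to 1.37%), against 0.455% (0.429% to 0.481%) in the rest of the window. CHH was 1.53% (1.42% to 1.65%) in the block and 0.459% in the rest, and CpG 82.0% (81.4% to 82.6%) in the block and 77.8% (77.3% to 78.3%) in the rest. All 3 contexts were thus higher in the block. The highest bin, chr7:114500001-114600000, reached 2.06% CHG (1.87% to 2.26%), 2.62% CHH and 87.7% CpG, and its neighbour to the right 1.99% CHG. These 2 are the high CHG bins counted above. The lowest bin of the window, chr7:115000001-115100000 at 0.314%, lies 100 kb beyond the right edge of the block. Without the block the window minus flank difference was -0.245 points in CHG and -0.221 points in CHH. The block was chosen by its level, so these values are a description with no test. What genes lie in the block was not looked up, since no mm9 annotation was used here.

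Along the windows the ranks of CHG and CHH bins went together only loosely. Over the 126 window bins Pearson's r between CHG and CHH was 0.86 and Spearman's rho 0.37. The 126 bins include those of the high block, which are high in both contexts. CHG and CpG had a rho of 0.09. These correlations are descriptions over neighbouring bins of 1 library, which share its reads and its conversion.

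**Figure D3:**
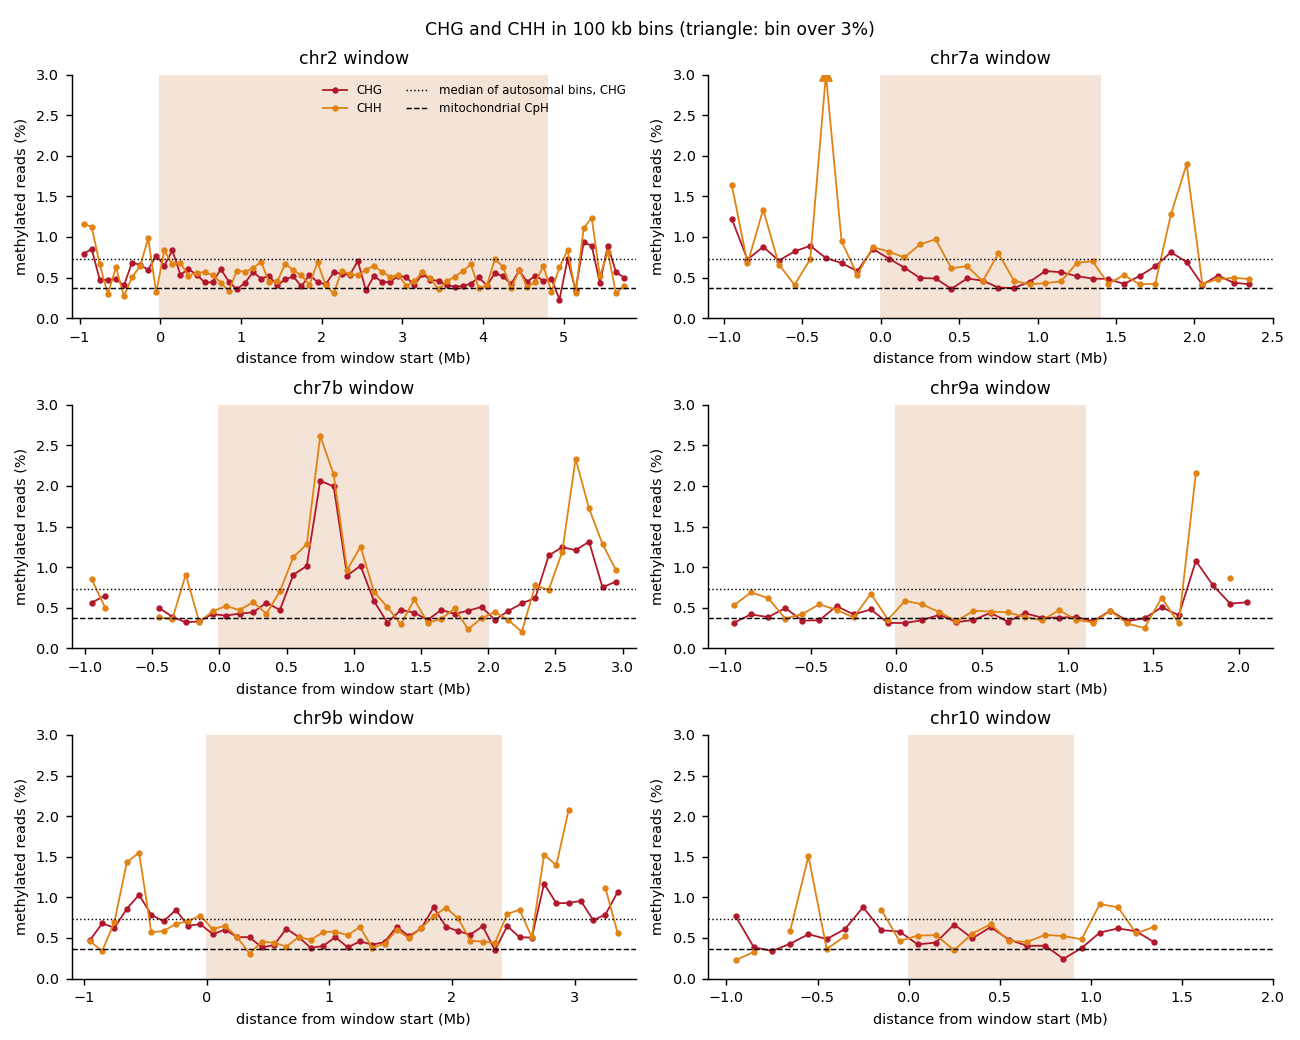
CHG and CHH levels (%) of 100 kb bins along each window (shaded) and its flanks, by distance in Mb from the window start, replicate 2. The dotted line is the CHG median of autosomal bins (0.734%) and the dashed line the mitochondrial CpH level (0.368%). The block of high bins inside the chr7b window reaches 2.06% CHG and 2.62% CHH, and the triangle marks the flank bin of chr7a at 6.92% CHH that holds the dense run.

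CpG methylation took the other direction. It was higher in 5 windows than in their flanks, and the windows held few of the unmethylated CpG sites that are found around them. The CpG level was 80.9% (80.7% to 81.2%) in the chr2 window, against 74.2% (73.8% to 74.6%) in its flanks (Fisher's exact test, adjusted p = 4.81e-186). It was 81.2% in the chr9b window, against 74.8% in its flanks (Fisher's exact test, adjusted p = 4.89e-143). It was 81.3% in the chr7a window, against 77.9% in its flanks (Fisher's exact test, adjusted p = 9.42e-31). These are the 3 highest CpG levels of the windows. The chr7b window was at 79.4%, against 76.4% (Fisher's exact test, adjusted p = 3.99e-25), and the chr10 window at 79.5%, against 77.6% (Fisher's exact test, adjusted p = 2.60e-06). The chr9a window, the lowest in CHG, was also the lowest in CpG, at 75.0%, against 75.9% in its flanks (Fisher's exact test, adjusted p = 0.0108). The left flank of chr9a was at 78.2% and its right flank at 73.7%. The right flank of chr10 alone was at 79.7%, close to its window. All windows but chr9a were above the 79.0% of other autosomal sites, and for chr10 that difference (0.454 points) did not pass (Fisher's exact test, adjusted p = 0.143). The mean difference from the flanks was 3.44 points (3.19 to 3.68), with an SD of 2.89 over the 6 windows, and 0.534 points against all other autosomal sites. In the chr9b window alone it exceeded the SD over bins of both window and flanks. Several calls depended on depth. At sites of at least 30 reads the chr2 difference was 1.41 points and did not pass (Fisher's exact test, adjusted p = 0.0617), nor did that of chr10 at 0.796 points (adjusted p = 0.534). The chr7a difference turned to -0.747 points there (Fisher's exact test, adjusted p = 0.361), and to -1.76 points at 30 to 39 reads (adjusted p = 0.0430).

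The windows and flanks also differed in their share of CpG sites at 20% or less. Such sites made up 1.60% (187 of 11696; 1.38% to 1.84%) of listed CpG sites in the windows, against 7.17% (750 of 10453; 6.69% to 7.69%) in the flanks and 5.41% on the autosomes outside the windows. With them left out the level was 81.4% (81.2% to 81.5%) in the windows and 81.2% (81.0% to 81.4%) in the flanks, and 83.0% on the autosomes. The mean difference over windows was then -0.590 points. Per window it was 0.566 points for chr2, 0.943 for chr7a, 1.09 for chr7b, 1.41 for chr9b, -4.14 for chr9a and -3.41 for chr10. This omission was chosen after the values were seen and selects sites by the level that is compared, so these values are a description with no test. Depth also moved the mean: at sites of at least 30 reads the mean CpG difference was 0.498 points.

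Runs of unmethylated CpG sites, the pattern of CpG-rich promoters, were nearly absent from the windows. A run was at least 5 consecutive listed CpG sites, each at 20% or less and at most 1 kb from the next. The windows held 2 runs in 12.6 Mb (0.159 per Mb), against 21 in 11.5 Mb of flanks (1.83 per Mb) and 4876 on all autosomes (1.97 per Mb). One lay in the chr9b window at chr9:39410622-39412135, where 11 sites over 1514 bp were at 0.772% (0.0937% to 2.76%) of 259 reads. The other lay in the chr7b window at chr7:114738135-114738975, where 5 sites over 841 bp were at 1.77% (0.215% to 6.25%) of 113 reads. The chr7b run is inside the block of high CpH methylation. The chr2 window had 0 runs, against 9 in its flanks, chr7a 0, against 3, chr9a 0, against 5, and chr10 0, against 3. The chr7b window had 1, against 0, and chr9b 1, against 1, so the scarcity was not found in every window. No bin of the windows was high by the CpG rule (at least 10 points over the autosomal median of 80.2%), where 0.168% of all bins are, and 2 of 126 were at least 10 points under it, against 16 of 111 flank bins, where 8.11% of all bins are. Both low window bins are in chr9a.

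CpG sites were a smaller part of the listed sites. They made up 9.68% (chr10) to 11.3% (chr7a) of listed CpG and CHG sites in the windows, against 11.2% (chr9a) to 15.4% (chr9b) in the flanks and 13.6% on the autosomes. In each of the 6 windows the share was below that of its own flanks. Listed CpG sites per Mb were not fewer throughout: there were 953 in the chr2 window, against 946 in its flanks, 1000 in chr7a, against 921, and 936 in chr9b, against 1140. Listed CHG sites were denser in all 6 windows, with 8510 per Mb in chr2, against 6115 in its flanks. The part of this composition in the level differences was not tested.

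**Figure D4:**
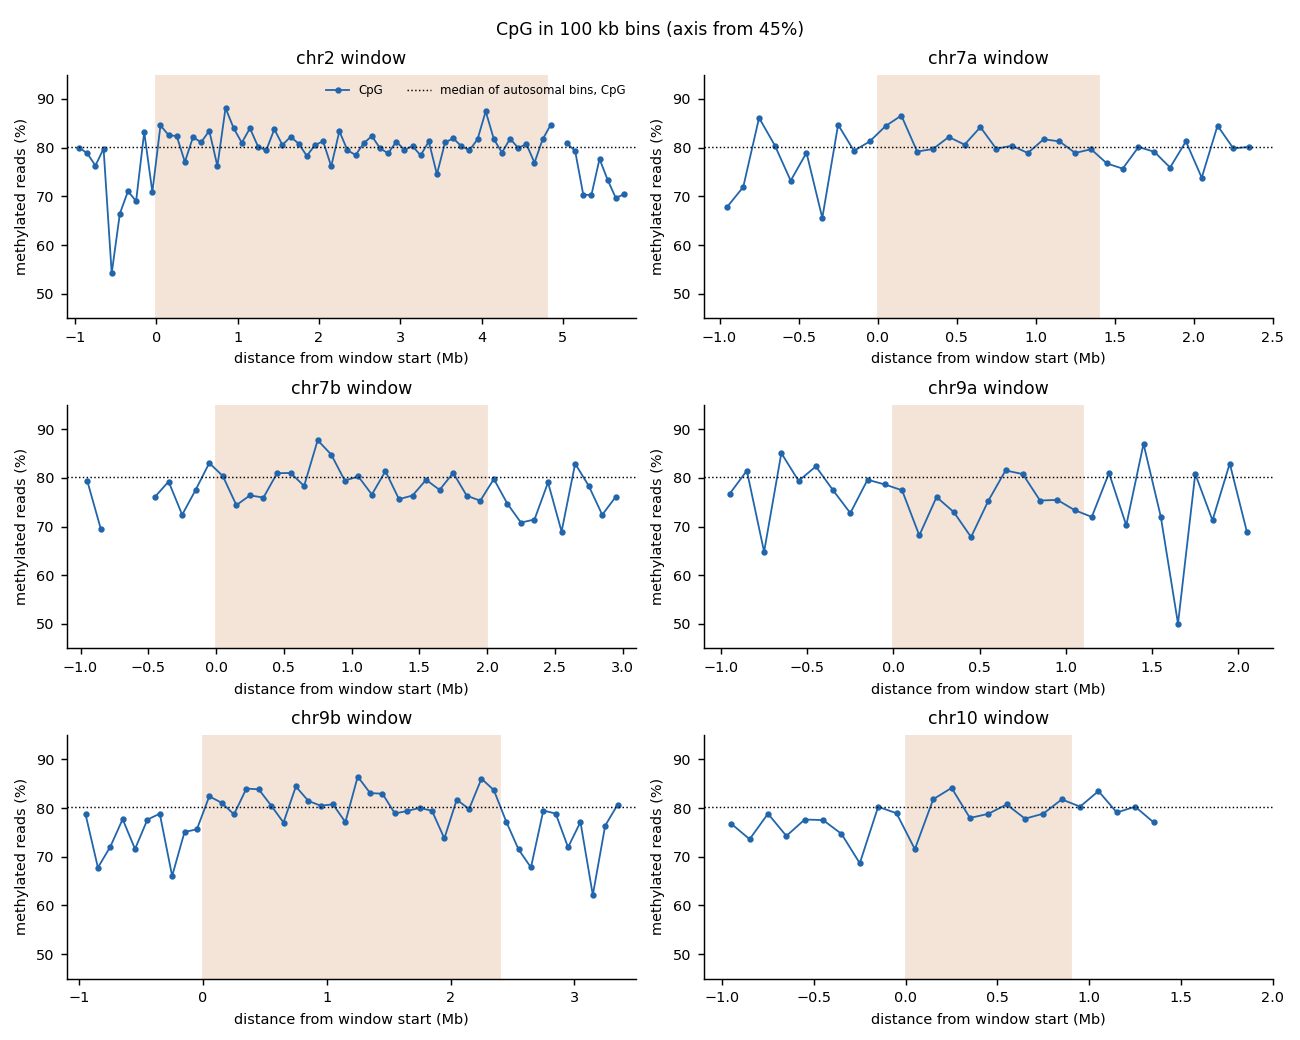
CpG level (%) of 100 kb bins along each window (shaded) and its flanks, by distance in Mb from the window start, replicate 2, on an axis from 45%. The dotted line is the median of autosomal bins (80.2%). Window bins lie between 67.8% and 88.1%, and flank bins between 50.1% and 87.0%.

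The change at the window ends was gradual or displaced in CHG, not a sharp step at the limits of the windows. At each of the 12 ends the split into 2 levels with the highest binomial likelihood was sought in 25 kb steps, from 1 Mb outside to at most 1 Mb inside. The inner side was the lower one at 11 of 12 ends in CHG, and at 10 of 12 in CHH. Yet the CHG step lay within 200 kb of the end at only 4 of 12 ends, and its median distance was 375 kb. At sites of at least 30 reads the number within 200 kb was 2. In the 200 kb on either side of an end the CHG level averaged 0.489% inside and 0.514% outside, and the exact intervals overlapped at all 12 ends.

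In 25 kb steps the nearest step was at the left end of the chr9b window, though in 10 kb steps that step lay 130 kb inside and in 50 kb steps 250 kb inside. In the 25 kb search CHG was 0.481% inside and 0.738% outside a point 25 kb outside the end, with a support interval (1.92 log-likelihood units) from 50 kb outside to 250 kb inside. At its right end the step lay 275 kb outside, with 0.581% inside and 0.972% outside it. The low CHG of chr9b therefore reached past its right limit. At the right end of chr10 the step was 150 kb outside, with 0.429% inside and 0.563% outside. At the left end of chr9a it was 100 kb outside, with 0.348% inside and 0.417% outside, the smallest of the 12 steps. Its support interval ran from 225 kb outside to 25 kb inside. At the left end of chr7a the step was 175 kb inside, with 0.456% inside and 0.785% outside it, so the first bins of that window had the level of their flank. In 50 kb steps that step lay 50 kb inside, and at sites of at least 30 reads 325 kb outside.

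The other steps were farther away. At the left end of chr2 CHG changed 450 kb inside, with 0.443% inside and 0.646% outside, and at its right end 400 kb outside, with 0.481% and 0.707%. The fixed chr2 limits thus sit to the left of both CHG steps by similar distances. At the right end of chr7b the step was 375 kb outside (0.504% inside, 1.09% outside), and at the right end of chr9a 600 kb outside (0.395% inside, 0.739% outside). At the right end of chr7a it was a small step 375 kb inside (0.395% inside, 0.529% outside). The left end of chr10 gave no well-placed step: the best point was 900 kb outside, with a support interval from 900 kb to 175 kb outside. The left end of chr7b was the exception in direction, since its largest step was the left edge of the high block, 550 kb inside (1.45% inside, 0.456% outside).

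CHG stayed under the autosomal median for some distance beyond most ends. Going outward, the first bin at or above the autosomal median began 0 kb from the left ends of chr2 and chr7a, 200 kb from the left ends of chr9b and chr10, 300 kb from the right end of chr9b, and 400 kb from the right ends of chr2, chr7a and chr7b. It began 600 kb beyond the right end of chr9a. On the left of chr7b and chr9a it began only at 1100 kb and 2400 kb, so these windows lie at the side of wider low stretches. To the right of chr10 no bin reached the median before the listed positions ended. Some bins on the left of chr7b had too few sites to be read.

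CHH and CpG often placed the change elsewhere. The CHH step lay within 200 kb of the end at 3 of 12 ends, and within 100 kb of the CHG step at 5. In CHH the inner 200 kb averaged 0.556% and the outer 200 kb 0.563%. In CpG the inner side of the largest step was higher at 10 of 12 ends, and the step lay within 200 kb at 6. At the left end of chr2 the CpG step fell on the limit itself, with 82.4% inside and 73.6% outside. At the left end of chr9b it lay 50 kb outside, with 81.4% inside and 73.7% outside, and at the right end 125 kb outside, with 80.5% and 74.7%. So at chr9b both ends were marked in CpG within 125 kb. Over the 200 kb on either side, however, CpG was higher inside at 5 ends, all with exact intervals apart, and lower inside at 7, of which 3 had intervals apart.

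**Figure D5:**
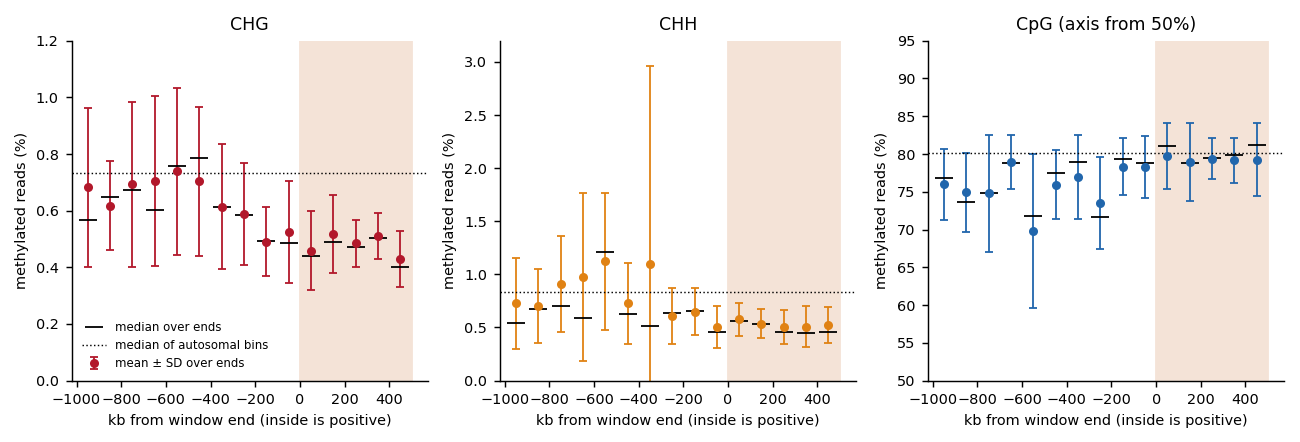
Mean level (%) ± SD of 100 kb bins over up to 12 window ends, by distance in kb from the end (negative outside, positive inside and shaded), for CHG, CHH and CpG, replicate 2, with bars for medians and a dotted line for the median of autosomal bins. CHG averages 0.458% in the first 100 kb inside and 0.523% in the first 100 kb outside, and 0.738% at 500 to 600 kb outside. The wide CHH bar at 300 to 400 kb outside comes from the chr7a flank bin at 6.92%.

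For single CpH cytosines, a one-sided exact binomial test set the methylated reads of each site against the mitochondrial CpH rate (Benjamini-Hochberg adjusted p of at most 0.01 over all nuclear sites of the context). In CHG 746 of 103026 window sites were called (0.724%, 0.673% to 0.778%), against 773 of 72213 flank sites (1.07%, 0.997% to 1.15%), where 1.46% of all autosomal sites are called. In CHH 670 of 46910 window sites were called (1.43%, 1.32% to 1.54%), against 456 of 23081 flank sites (1.98%, 1.80% to 2.16%), where 2.75% of all autosomal sites are. Pooled over the 6 windows, the intervals of windows and flanks do not overlap in either context. Window by window, they were apart in CHG for chr2, chr9a and chr9b only, and in CHH for chr7a and chr9b only. In chr7b the share was higher than in the flanks in both contexts (CHH 2.16%, against 1.99%). The CHG share was lowest in chr9a, 0.311% (26 of 8364), against 0.591% in its flanks, and highest in chr7b, 1.37% (220 of 16019), against 1.31% in its flanks. A call needed at least 3 methylated reads, and the median level of called sites was 16% in CHG and 12.5% in CHH in the windows, near the lowest level that can be called at this depth. Sites with lower methylation were not detectable one by one.

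A few cytosines in the windows were nonetheless methylated in a large share of reads. The highest called site with at least 30 reads was a CHG cytosine in the chr10 window, chr10:128828083, with 28 of 39 reads methylated (71.8%, 55.1% to 85.0%). In the chr7b window it was a CHH cytosine inside the high block, chr7:114520392, with 23 of 33 reads (69.7%). In chr9b it was the CHH cytosine chr9:39422962, with 16 of 30 (53.3%). That site lies to the right of the unmethylated CpG run of the same window. In chr2 it was chr2:86864226, a CHH cytosine with 16 of 31 reads (51.6%), in chr7a chr7:110726475, CHH, with 14 of 33 (42.4%), and in chr9a chr9:19757134, CHH, with 10 of 35 (28.6%). The chr9a maximum was the lowest of the 6. Of called sites at 30% or more, the chr7b window held 24 of the 40 CHG sites and 6 of the 13 CHH sites of all windows. The windows list 103026 CHG and 46910 CHH sites, of which chr7b lists 16019 and 5973. On all autosomes, 21334 of 18249464 CHG sites and 12479 of 6165525 CHH sites were called at 30% or more. Whether such a site is a cytosine of the reference in these mice was not tested.

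The lower CpH level of the windows was present in each class of depth. CHG was 0.530% in the windows and 0.622% in the flanks at 20 to 24 reads, 0.518% and 0.634% at 25 to 29, 0.488% and 0.615% at 30 to 39, and 0.575% and 0.873% at 40 to 100. CHH was 0.559% in the windows and 0.691% in the flanks at 30 to 39 reads, and 0.581% and 0.805% at 40 to 100. CpG behaved otherwise: it was 80.1% in the windows and 75.4% in the flanks at 20 to 24 reads, but 80.5% and 79.1% at 30 to 39, and 75.2% and 75.0% at 40 to 100, with overlapping intervals in the last class. Windows were above flanks in CpG, with intervals apart, in the 3 classes under 40 reads. Single windows could differ from the pool. At 30 to 39 reads chr10 CHG was 0.210 points higher in the window (Fisher's exact test, adjusted p = 0.00449). The lower CHG of chr2, chr7a and chr9b passed there, while the differences of chr9a and chr7b did not.

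Sites above 100 reads, left out by the rule, occurred in the chr10 window and in no other. They were 11 CHG sites at chr10:128654729-128654819, at 0.112% (0.0136% to 0.404%), and 14 CHH sites in the same stretch at 0.215%. Neither exceeded the mitochondrial level.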

How the data were processed

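Bisulfite reads of replicate 2 were used, and replicate 1 only as values. Per the submitters' processing notes the reads were handled with Bismark 0.7.5 on build mm9. Not given in the sources used here are trimming and the removal of duplicates or unconverted reads. The deposited tables give, per cytosine, counts of methylated, unmethylated and all reads, with a percent that the authors derived from them. Sites below 20 reads (CHH of replicate 2: 30) are not in the tables, and sites above 100 reads were left out. The X and Y chromosomes did not enter the autosomal values.

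Levels are methylated reads over all reads of a region, computed here from the counts. Windows and flanks were compared by Fisher's exact test (two-sided), adjusted by Benjamini-Hochberg over 18 tests and judged at 0.05. With 1 library such a test compares reads, not conditions. Bins of 100 kb needed 20 CpG, 100 CHG or 50 CHH sites. The bin calls, Fisher's test at equal levels and the search for steps were checked on simulated data. That check of Fisher's test drew independent reads, so it does not cover reads that share a fragment. The binomial test of single sites was not simulated. Named were the lowest and highest CHG bin, the longest run of low CpG sites and the highest called CpH site of each window. The windows, lists and tests were chosen with earlier results of these data known. Gene positions were not used, as no mm9 annotation was at hand. Tools were Python 3.11.15, NumPy 2.4.6, pandas 2.3.3, SciPy 1.17.1 and Matplotlib 3.10.9.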

Additional observations from a re-analysis of the deposited data

Results flagged for a closer look

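In replicate 1, which the comparisons do not use, 491 CHH sites of the 6 windows were at 0.558% (exact 95% interval 0.428% to 0.715%) of 11107 reads, above the mitochondrial CpH level of that library (0.418%). The 263 CHH sites of the flanks were at 3.61%. Of their 213 methylated reads, 182 came from the flanks of chr7a, which hold dense CpH runs. CHG in replicate 1 was 0.333% (0.166% to 0.595%) at 141 window sites, against 3.51% at 67 flank sites. The chr7a flanks gave 38 of the 51 methylated CHG reads of the flanks, at 14 of those 67 sites. CpG was 79.2% at 26 window sites, against 77.9% at 15 flank sites. The chr7a and chr10 windows had no CpG site in replicate 1. No test was made of these few sites.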

How the results depend on the processing

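Averaged over the 6 windows, the CHG and CHH differences kept their direction under every setting tried, though single windows did not. No paired analysis was possible because there is 1 group and the windows are defined on 1 library. Values are mean differences, windows minus flanks, in points. At 30 reads or more CpG was 0.498 and CHG -0.137, and at 30 to 39 reads CpG was 0.361. With flanks of 0.5 Mb CpG was 2.86, CHG -0.0686 and CHH -0.0865, and with flanks of 2 Mb 2.89, -0.159 and -0.203. Against other autosomal sites they were 0.534, -0.273 and -0.328. Without chr2 CpG was 2.77, without chr9a 4.31, without chr10 3.74. Without chr9b the 3 were 2.84, -0.0863 and -0.121, and without chr7b CHG was -0.142 and CHH -0.192. Replicate 1 gave -1.01 (CpG, 4 windows), -2.57 (CHG) and -1.94 (CHH), from few sites and with chr7a flanks at 12.2% CHG and 10.5% CHH. Its CHH was higher in the chr2 window (0.746%, against 0.460%) and the chr7b window (0.325%, against 0.162%), and lower in the others. Its CHG was lower in all windows but chr9a, with 0% on both sides. Added after seeing the data were 3 settings: without dense CpH runs CHH was -0.105, without the chr7b block CpG was 3.16, CHG -0.159 and CHH -0.197, and without CpG sites at 20% or less CpG was -0.590.

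In replicate 2, single windows turned round as follows. CpG of chr7a was -0.747 at 30 reads or more and -1.76 at 30 to 39 reads, and chr10 CHG was 0.170 and 0.210 there. CHH of chr9a was 0.00802 with flanks of 0.5 Mb. CHG and CHH of chr7b were -0.0644 and -0.178 against other autosomal sites, and -0.245 and -0.221 without the block. CHH of chr7a was 0.0293 without dense runs, and CpG of chr10 was -3.41 without low CpG sites. For none of these was the cause tested.

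The share of window bins with low CpG was 3.17% in 50 kb bins, against 11.2% of all autosomal bins. In 200 kb bins it was 0% of 62, against 5.44%. It was 0% of 2 bins at 30 reads, against 12.9%, and 6.35% at a limit of 5 points, against 20.6%. CHG steps within 200 kb numbered 2 of 12 at 30 reads or more. Called CHG sites made up 0.288% of windows and 0.460% of flanks at a background of 1%, and 0.942% and 1.46% at 30 reads. Called CHH sites made up 0.407% and 0.828% at a background of 1%, and 1.55% of the windows at an adjusted p of 0.05. Shares over all autosomal sites are not given for these settings of the site calls. Depth near the listing minimum limits single CpH sites to levels of about those called.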
